A study of Mus musculus with 14 samples.

Results

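The 7 Vav-SB thymic lymphomas, of 14 tumours in the series, were divided by their own level of Erg, the gene of an ETS-family transcription factor. A tumour was placed with high Erg where the mean log2 value over the probe sets annotated to Erg alone was 8.5 or more, which took 3 tumours, and with low Erg below that, which took 4. The division is a measured one: the labels name no Erg status, and the tumours were not treated differently. All 7 are snap-frozen thymic lymphomas of the strain labelled Vav-SB, in which mobile Sleeping Beauty transposons mutate genes and give rise to acute leukaemia of T cells (T-ALL). The labels give no age, sex, agent or further allele, and whether each tumour came from a separate mouse is not stated, so p-values reflect the variation from tumour to tumour. The Vav promoter is known to be active in blood-forming cells from the stem cell on. The other 7 tumours, of the CD4-SB model, were not part of the comparison, and their levels are given only as a reference.

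Erg binds DNA at ETS sites, whose core is GGAA, and works in blood stem cells beside Fli1, Gata2, Runx1, Tal1, Lyl1 and Lmo2. In the thymus it is made by the earliest progenitors and is switched off as cells commit to the T lineage. Forced Erg expression is known to cause T-ALL in mice, and the gene is a known insertion site of transposons and retroviruses in T-cell tumours. The comparison asks which other genes differ between Vav-SB tumours that have much and little Erg RNA.

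RefSeq gives 3 start sites for mouse Erg, and windows of 300 bases, mostly upstream of each, are shown because the Erg probe sets did not all move together. In build GRCm38.p6 and on the minus strand, window A is chr16:95586544-95586843, window B is chr16:95530316-95530615 and window C is chr16:95459299-95459598. Capitals mark the ETS core GGAA or its reverse complement TTCC, which occurs 1 time in A, 4 times in B and 2 times in C, and in 96.0% of all 32851 such mouse windows.
Erg window A: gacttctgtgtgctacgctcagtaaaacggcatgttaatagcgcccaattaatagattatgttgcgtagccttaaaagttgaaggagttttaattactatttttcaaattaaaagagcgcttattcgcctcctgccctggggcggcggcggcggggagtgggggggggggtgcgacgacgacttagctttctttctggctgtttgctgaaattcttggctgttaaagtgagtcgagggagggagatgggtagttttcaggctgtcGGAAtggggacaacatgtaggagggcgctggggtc
Erg window B: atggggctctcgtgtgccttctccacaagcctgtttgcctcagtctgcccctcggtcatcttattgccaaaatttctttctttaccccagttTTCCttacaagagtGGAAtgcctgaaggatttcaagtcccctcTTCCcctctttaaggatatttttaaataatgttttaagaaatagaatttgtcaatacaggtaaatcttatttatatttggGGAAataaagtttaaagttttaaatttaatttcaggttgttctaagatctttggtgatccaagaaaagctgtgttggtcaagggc
Erg window C: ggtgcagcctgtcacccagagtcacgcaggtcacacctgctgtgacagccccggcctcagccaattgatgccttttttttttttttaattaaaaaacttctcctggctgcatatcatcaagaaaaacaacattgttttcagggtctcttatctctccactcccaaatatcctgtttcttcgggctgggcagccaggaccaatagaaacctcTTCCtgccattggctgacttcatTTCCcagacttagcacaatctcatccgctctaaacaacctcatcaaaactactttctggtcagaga
The longer ETS motifs AGGAAGT and CGGAAGT, searched on both strands, are in none of the 3 windows, while 9.35% and 6.42% of all windows hold them. Positions of the array's probe sets were not used here, so the values do not say which start was used.

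Erg itself, whose values chose the tumours and are therefore given without a test, lay far apart in the 3 and the 4 tumours. Levels are means of log2 values over a gene's probe sets, and 1 unit is a doubling. The high tumours were at 9.85 (replicate 4), 10.18 (replicate 6) and 9.73 (replicate 7), a mean of 9.92 ± 0.23 (SD, n = 3). The low tumours were at 6.43 (replicate 1), 7.03 (replicate 2), 7.38 (replicate 3) and 6.78 (replicate 5), a mean of 6.91 ± 0.40 (SD, n = 4). The means differed by 3.02, or 8.09-fold. In bulk tumours, fewer cells of a type and less RNA per cell cannot be told apart. The gap around the limit ran from 7.38 in replicate 3 to 9.73 in replicate 7, and the CD4-SB tumours lay between 6.60 and 7.48, at the level of the 4.

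The difference in Erg RNA did not extend over all of its probe sets, groups of probes that mostly cover 1 exon each. In 7 of the 11 Erg probe sets all 3 high tumours lay above all 4 low tumours, by at least 2.74. Over these 7 sets the high tumours were at 11.16, 11.43 and 10.92 and the low tumours at 6.14, 6.75, 7.62 and 6.47. Probe set 4532071 had the largest difference, with the high tumours at 9.41, 9.54 and 9.10 and the low tumours at 2.90, 3.98, 5.05 and 3.06. The 3 high tumours were close to one another there, and replicate 3 was again the highest of the 4.

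The other 4 probe sets behaved differently. Probe set 5329654 was at 9.59 in replicate 6 and 8.82 in replicate 7, but at 6.98 in replicate 4, inside the 6.34 to 7.36 of the low tumours. The high tumours themselves fell on both sides there. They also did so on probe set 4957741, at 9.93 in replicate 4 and 9.37 in replicate 7, above the 8.51 to 8.90 of the low tumours, but at 8.78 in replicate 6, inside that range. All 7 tumours were above the median gene level of 7.18 on this set. Probe sets 4318853 and 4656811 overlapped entirely, the first between 7.21 and 7.35 in the high and between 7.18 and 7.76 in the low tumours.

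**Figure D1:**
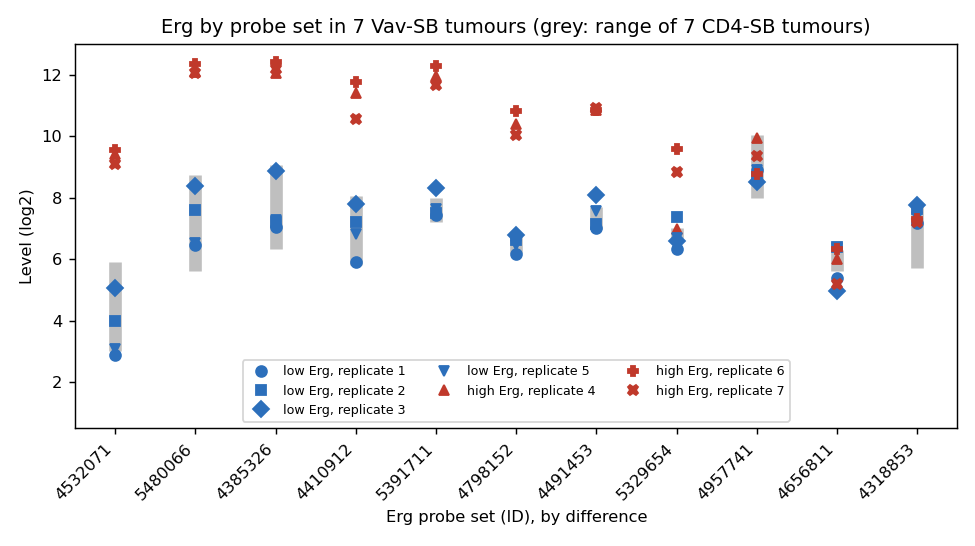
Level (log2) of each of the 11 Erg probe sets in the 7 Vav-SB tumours, red for the 3 with high and blue for the 4 with low Erg, with the range of the 7 CD4-SB tumours as a grey bar. The 7 probe sets on the left separate the red from the blue points by at least 2.74, and on 5329654 replicate 4 lies with the low tumours.

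The genes on both sides of Erg on chromosome 16 did not share its pattern. Of the 5 measured genes before it and the 5 after it, in the order of the GRCm38.p6 gene table, 0 separated the 3 from the 4 tumours. Of all genes 3.83% did, so a count of 0 in so few genes is near that share. Kcnj15, a potassium channel gene next to Erg, differed by 0.21 (95% interval -0.47 to 0.89), with 7.32, 7.59 and 7.55 in the high and 6.86, 7.02, 8.15 and 7.08 in the low tumours. Ets2, the ETS gene on its other side, differed by 0.17 (-0.53 to 0.86). Both intervals lie far below the difference of Erg.

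Of the other 15802 genes, 0 passed the test between the 3 and the 4 tumours (0%; limma with Benjamini-Hochberg adjustment, threshold 0.05), and the smallest adjusted p was 0.218. At an unadjusted limma p under 0.05 there were 537 genes, or 3.4%, with 266 (1.68%) higher and 271 (1.71%) lower in the tumours with high Erg. The 3 and the 4 tumours did not overlap in 319 genes in the higher direction, which is 2.02% of genes, and in 287 in the lower direction, which is 1.82%. A difference of 2-fold or more was seen in 102 genes, or 0.645%. Of these, 19 genes (0.12%) were higher and 24 (0.152%) lower with high Erg without overlap between the tumours. The median gene differed by 0.01, and the 95% interval of a difference reached 0.34 to either side in the median gene. That interval is for 1 gene taken alone, and after adjustment much larger differences did not pass. Tested singly, 0 of 179485 probe sets passed either, with a smallest adjusted p of 0.451 in limma, an alternative chosen after seeing the data, and 3.53% had an unadjusted p under 0.05.

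By their correlations the tumours did not sort by Erg either. Over all genes the correlation between 2 tumours was 0.968 to 0.972 within the 3 high tumours, 0.951 to 0.979 within the 4 low ones and 0.955 to 0.981 between a high and a low tumour. The closest pair of all was replicate 4, with high Erg, and replicate 5, with low Erg. Replicate 3 stood apart, at 0.951 to 0.959 with the other 6, whose own correlations were 0.964 to 0.981. The first principal component, with 31.3% of the variance, placed replicate 3 at 42.96 and the others between -16.71 and 11.19. The second, with 19.5%, placed the high tumours at -0.59, 33.46 and 6.43 (replicates 4, 6 and 7). The low tumours were at -11.13, -11.05, -17.12 and 0.01 on it (replicates 1, 2, 3 and 5). Only replicates 4 and 5 crossed there. Without replicate 3, 0 genes passed in limma, the smallest adjusted p was 0.0655 (Cd200 and Zfp946), and 893 genes had an unadjusted p under 0.05.

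An unadjusted limma p under 0.01 was found in 95 genes, or 0.601%, with 60 (0.38%) higher and 35 (0.221%) lower with high Erg. The largest differences among them, in genes whose higher mean lay above the median gene level, are described next as values, since 0 passed. The first in the higher direction was the predicted gene Gm5111. It was at 8.48, 9.40 and 7.94 in the tumours with high Erg (replicates 4, 6 and 7) and at 5.98, 5.87, 5.20 and 5.23 in those with low Erg (replicates 1, 2, 3 and 5). That is a difference of 3.04 ± 0.35 (SE), or 8.2-fold, as large as that of Erg itself, with an adjusted limma p of 0.218. All 4 of its probe sets separated the tumours, and on probe set 5512771 the high tumours were at 10.71, 11.54 and 10.07 against 4.84 to 6.88. On probe set 5541942 the gap was 0.05, and replicate 6 stood out at 5.77.

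Chd3 encodes a helicase of the NuRD chromatin remodelling complex. It was at 7.72, 8.06 and 7.81 in the high and at 6.49, 6.67, 6.78 and 6.91 in the low tumours, a difference of 1.15 ± 0.14 (SE; adjusted p = 0.218). On 6 of its 9 probe sets the tumours did not overlap, and on probe set 5059570 the high ones lay between 8.74 and 9.57 and the low ones between 6.14 and 7.28. The CD4-SB tumours, where Erg was low, had Chd3 between 7.49 and 8.97, a range that reaches above the 3 Vav-SB tumours with high Erg.

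Laptm4b, a membrane protein of lysosomes, was at 7.75, 8.27 and 8.34 against 6.44, 6.41, 6.63 and 6.93 (adjusted p = 0.218). Its difference came from 2 of its 4 probe sets, 5435100 and 5281919, where the means differed by 2.92 and 2.40, while the other 2 overlapped and differed by 0.69 and 0.06. Lama4, the laminin alpha 4 chain of basement membranes, was at 7.63, 8.06 and 8.43 against 6.41, 6.18, 6.95 and 6.15 (adjusted p = 0.461). In Lama4 34 of the 40 probe sets separated the 3 from the 4 tumours, the largest number among the 12. Its share was not the largest, since Gm5111 had 4 of 4 and Uaca 22 of 25. Such counts are for genes chosen by size, and the share over all probe sets was not counted.

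The next 8 genes in this direction all had an adjusted p close to 1. Uaca, a coiled-coil protein with ankyrin repeats, was at 9.39, 10.73 and 9.38 with high Erg. Its 4 low values fell into 2 levels, 6.53 and 6.40 in replicates 1 and 2 and 8.70 and 8.58 in replicates 3 and 5. Stc1, the secreted glycoprotein stanniocalcin 1, was at 8.84, 8.54 and 8.15 against 6.60, 6.22, 6.31 and 8.01, where replicate 5 came near the high tumours. Acvr2a, a type 2 activin receptor, was at 9.21 in replicate 4 and at 7.69 and 7.66 in replicates 6 and 7, against 6.36 to 7.13. Cd200, a surface ligand that restrains myeloid cells, was at 8.44, 8.48 and 8.38 against 6.80 to 7.16 in replicates 1, 2 and 5, and replicate 3 was at 8.27. Hipk2, a nuclear kinase that acts on p53, was at 8.90, 9.30 and 8.72 against 7.57 to 8.29. Osbpl1a, an oxysterol-binding protein, Mctp2, a membrane protein with C2 domains, and Adamts20, a secreted metalloprotease, differed by 1.34, 1.66 and 1.07, and of the 12 genes Mctp2 alone overlapped.

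In the lower direction the smallest p belonged to Slc35b4, a nucleotide sugar transporter, and Jup, the junction protein plakoglobin. Slc35b4 was at 8.63, 8.32 and 8.54 with high Erg and at 9.59, 9.54, 9.45 and 9.25 with low Erg, a difference of -0.95 ± 0.13 (SE; adjusted p = 0.231). The tumours did not overlap on 16 of its 17 probe sets, and the CD4-SB tumours were lower still, between 7.68 and 8.09. Jup was at 6.83, 6.60 and 6.83 against 8.19, 8.51, 7.88 and 7.80, a difference of -1.34 ± 0.18 (SE; adjusted p = 0.231), with 11 of 12 probe sets apart.

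P3h4, part of a complex that modifies collagen, was at 6.81, 6.11 and 6.49 against 7.92, 7.99, 7.44 and 7.53. It is the measured gene next to Jup on chromosome 11. Cox6a2, the muscle form of a cytochrome c oxidase subunit, had the largest difference of the 12, -2.08. It was at 8.10, 8.18 and 8.0 with high Erg, and the 4 low tumours ranged from 9.13 in replicate 3 to 11.64 in replicate 2. Dclk2, a doublecortin-like kinase, was at 8.42, 8.23 and 8.16 against 8.84 to 10.03.

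Rgs2, which dampens G-protein signalling, was at 7.94, 8.80 and 8.45 against 9.11 to 9.76, and Cerk, the ceramide kinase, at 7.27, 6.75 and 7.39 against 7.65 to 8.75. Wfdc18, Gm5124, Gramd3, Fbxo30 and Tube1 completed the 12, with differences of -1.77, -1.43, -1.32, -1.12 and -1.05. Wfdc18 had 6.39 in replicate 7 and 6.42 in replicate 5, so that the 2 sets nearly met. Of the 24 genes of largest difference 23 did not overlap between the tumours, where 3.83% of all genes did not, but they were chosen by size and p and the count supports nothing.

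**Figure D2:**
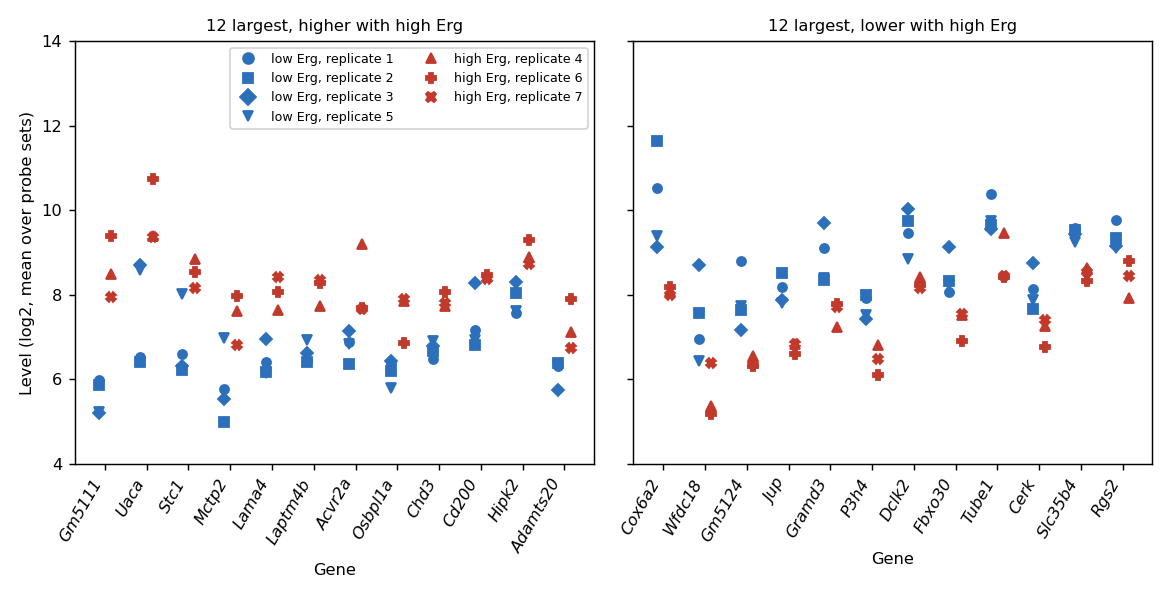
Level (log2) in each tumour of the 12 genes with the largest difference in each direction among those with an unadjusted p under 0.01, red for the 3 tumours with high Erg and blue for the 4 with low Erg. Gm5111 separates the tumours most clearly, from 5.98 to 7.94, and in Uaca and Cox6a2 the low tumours themselves spread widely.

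The longer ETS motifs were also counted in the promoters of these genes. Of the 12 in the higher direction 7 have a RefSeq window, and AGGAAGT is in 1 of them (Mctp2) and CGGAAGT in another (Acvr2a). Of the 12 in the lower direction 8 have one, and AGGAAGT is in 1 (Wfdc18) and CGGAAGT in 0. Among 12609 measured genes with a window 10.1% hold AGGAAGT and 10.5% hold CGGAAGT.

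The genes most like Erg in pattern were sought among the 398 others whose range over the 7 tumours was at least 2. By Pearson's r over the 7 tumours, which share the division by Erg, they were Zfp946 (0.94), Gm5111 (0.94), Lama4 (0.93), Gm4759 (0.85), Osbpl1a (0.83) and Gjb2 (0.83). The limit on the range left out genes with a higher r, among them Chd3 (r 0.979, range 1.57), Hipk2 (0.956, 1.73) and Laptm4b (0.943, 1.935). Zfp946, a zinc finger gene, was at 7.08, 6.86 and 6.64 with high and at 5.02, 5.22, 6.21 and 5.34 with low Erg. Its highest low tumour was replicate 3, which also had the most Erg of the 4. Gm4759 is a transcribed pseudogene, whose probe sets can bind relatives. Gjb2, the gap junction protein connexin 26, was highest in replicate 6 at 8.39, and replicate 7, at 6.90, lay below replicate 2, at 6.97.

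Among the other ETS factors, the relatives that bind the same core, 0 of 21 measured genes passed. The tumours did not overlap in 1 gene in the higher direction, Etv6, and in 2 in the lower, Elk3 and Ets1, where 2.02% and 1.82% of all genes did not overlap, and the median difference was -0.05. Etv6, a repressor needed by blood stem cells, was at 8.89, 9.37 and 8.99 against 8.66, 8.48, 8.77 and 8.53. Elk3, a target of MAP kinase signalling, was at 8.52, 8.40 and 8.13 against 8.60, 8.84, 9.45 and 8.97. Fli1, the closest relative of Erg, was at 9.50, 9.28 and 9.72 against 9.54, 9.92, 9.86 and 9.70, a difference of -0.26 (95% interval -0.59 to 0.08). Ets1, the main ETS factor of T cells, was at 10.58, 10.74 and 10.51 against 10.96, 11.45, 10.74 and 10.81. High and low tumours all but met there, at 10.7415 in replicate 6 and 10.7421 in replicate 3. The difference of Ets1 was -0.38 (95% interval -0.79 to 0.03). The range of Fli1 over all 7 tumours was 0.65.

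Of the 15 blood stem cell factors that bind with Erg, 0 passed, in 0 did the 3 and the 4 tumours separate, and the median difference was -0.06. Runx1, the factor that founds blood stem cells, differed by 0.32 (95% interval -0.17 to 0.82). Tal1, Lyl1 and Gata2 differed by -0.06 (-0.39 to 0.28), 0.04 (-0.43 to 0.51) and -0.14 (-0.46 to 0.19). Lmo2, the adaptor that joins them, differed by -0.33 (-1.02 to 0.37), and its highest level, 8.74, was in replicate 3. For Runx1, Tal1, Gata2 and Lyl1 the whole interval lies within 1 unit, a change of 2-fold, to either side of 0.

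The early progenitor genes gave 0 of 17. Kit, the stem cell factor receptor, was at 6.34, 6.75 and 8.14 with high Erg and at 6.66, 6.51, 6.84 and 6.39 with low Erg, so that replicate 7 alone was raised. Cd34, a surface protein of progenitors, was at 6.99, 6.70 and 7.00 against 6.95, 6.78, 7.75 and 6.78, with replicate 3 the highest. Cd48, a SLAM-family surface protein, did not overlap, at 8.58, 8.41 and 8.92 against 8.12 to 8.40, a difference of 0.36. In the higher direction 2.02% of all genes did not overlap. Meis1, a homeobox gene of progenitors, differed by -0.22 (-0.83 to 0.39).

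Of 21 T-ALL transcription factor oncogenes 0 passed, and 1 separated the tumours in the higher direction, as 2.02% of all genes did, the MYC family gene Mycn. A single gene of 21 is no result about the list. It was at 6.47, 6.38 and 7.17 with high and at 5.77, 5.72, 6.15 and 5.87 with low Erg, a difference of 0.80 (95% interval 0.32 to 1.27), all at or below the median gene level. Myc was bright in all 7 tumours, from 10.36 in replicate 3 to 11.03 in replicate 6, and differed by 0.21 (-0.13 to 0.55).

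Genes that mark the stages of thymocytes come next. Of 22 T-lineage commitment factors, 19 early thymocyte genes and 22 double-positive thymocyte genes 0, 0 and 0 passed, with median differences of 0.02, 0.05 and -0.05. Bcl11b, the factor that closes T-lineage commitment, lay between 8.77 and 8.92 with high and between 8.70 and 9.10 with low Erg, and its difference was between -0.29 and 0.28 at the 95% level. Tcf7, another commitment factor, differed by -0.01 (-0.28 to 0.25). Il2ra, the CD25 chain of the interleukin-2 receptor and a mark of early thymocytes, was the most variable, at 11.29, 12.01 and 10.08 with high Erg and at 6.62, 8.67, 11.17 and 12.15 with low Erg. Its low values were in replicates 1 and 2, and replicates 3 and 5 were as high as the tumours with high Erg.

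Rag1, a subunit of the V(D)J recombinase, differed by -0.05 (-0.84 to 0.75) and Dntt, the terminal transferase, by 0.59 (-0.22 to 1.40). Cd4 was at 8.40, 7.94 and 8.71 against 7.90, 7.80, 9.88 and 9.42, and Cd8a at 10.81, 11.51 and 10.16 against 11.22 to 11.56. Of 17 mature T-cell genes 0 passed. Gimap4, a GTPase of maturing T cells, was highest in replicates 6 and 7, at 11.37 and 10.58, but at 9.37 in replicate 4, inside the 8.79 to 9.75 of the low tumours.

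Of 18 Notch pathway targets 0 passed. Notch1, the receptor most often mutated in T-ALL, was high in all 7 tumours, at 10.84, 11.01 and 10.25 against 10.20, 10.27, 11.22 and 10.93. Its target Dtx1 was at 9.16, 9.58 and 8.61 against 8.03 to 9.61, and Ptcra, the surrogate alpha chain of the pre-TCR, at 9.64, 9.15 and 8.80 against 8.48 to 9.77. Hes5, a Notch-driven repressor, differed by 0.40 and overlapped.

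Of 35 measured genes on a list of known insertion sites in T-cell tumours of mice 0 passed. Besides Mycn and Ets1, the tumours did not overlap in Il9r, an interleukin receptor gene, at 6.88, 6.98 and 7.17 against 7.27, 7.51, 7.92 and 7.52. Mycn was higher and Ets1 and Il9r lower with high Erg. Of all genes 2.02% did not overlap in the higher and 1.82% in the lower direction. Myb and Ikzf1, a progenitor factor and the lymphoid factor Ikaros, differed by -0.29 (-0.70 to 0.11) and -0.10 (-0.54 to 0.34). In 2 of the 35 genes of the list 1 tumour lay apart from the other 6. That share is near the rate at which chance alone flags a tumour, given with the flagged results below. The 2 genes are therefore described as values only. Stat5b, a transcription factor of cytokine signalling, was at 10.66 in replicate 3, a tumour with low Erg, and between 8.77 and 9.51 elsewhere. Zmiz1, a Notch1 cofactor, was at 9.46 in replicate 6, a tumour with high Erg, and between 8.69 and 8.97 elsewhere.

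Of 24 PI3K and Akt genes, 28 cytokine receptor and JAK-STAT genes and 21 T-cell receptor signalling genes 0 passed. Rictor, a part of mTOR complex 2, was at 8.91, 8.87 and 8.88 with high and at 9.59, 9.18, 9.31 and 9.42 with low Erg, a difference of -0.49 (-0.77 to -0.21). Prkcq, the protein kinase C of the T-cell synapse, differed by 0.29 and did not overlap. Of 26 cell cycle genes 0 passed, and Cdk6, a kinase of the G1 phase, was at 9.66, 10.03 and 9.56 against 9.24 to 9.48. Prkcq and Cdk6 were higher and Rictor lower without overlap, as were 2.02% and 1.82% of all genes. Of 18 p53 targets and CDK inhibitors and 14 Bcl2 family genes 0 passed. Cdkn2a, which encodes p16 and p19Arf, differed by 0.24 (-0.09 to 0.58) and was at most 7.27 in all 7 tumours.

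Of 18 interferon-stimulated genes, 17 cytotoxic genes and 9 gamma-delta and T17 genes 0 passed. In the last list Blk, a kinase of B cells and gamma-delta T cells, and Rora, a nuclear receptor of T17 cells, did not overlap. Both were lower with high Erg, and 1.82% of all genes were so without overlap. Blk was at 6.99, 6.98 and 6.69 with high and at 8.55, 8.79, 7.25 and 7.37 with low Erg, and Rora was at 6.79, 6.66 and 6.67 against 7.83, 8.35, 6.84 and 7.57. In both genes replicates 1 and 2 were the highest and replicate 3 was close to the tumours with high Erg. Il23r, the receptor that defines T17 cells, was at 7.03 in replicate 1 and at or below 5.79 in the other 6.

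As 3.83% of all genes did, a few further list members did not overlap between the tumours, each with an adjusted limma p of 1.0. In the higher direction these were Jak2, a cytokine receptor kinase (0.26), Gbp2, an interferon-induced GTPase (0.69), and Bad, a death-promoting Bcl2 relative (0.12). In the lower direction they were Syk, a kinase of antigen receptors (-0.67), Csf3r, the receptor of a granulocyte growth factor (-0.26), Mdm2, the ligase that removes p53 (-0.10), and Dll4, the Notch ligand of thymic epithelium (-0.22).

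**Figure D3:**
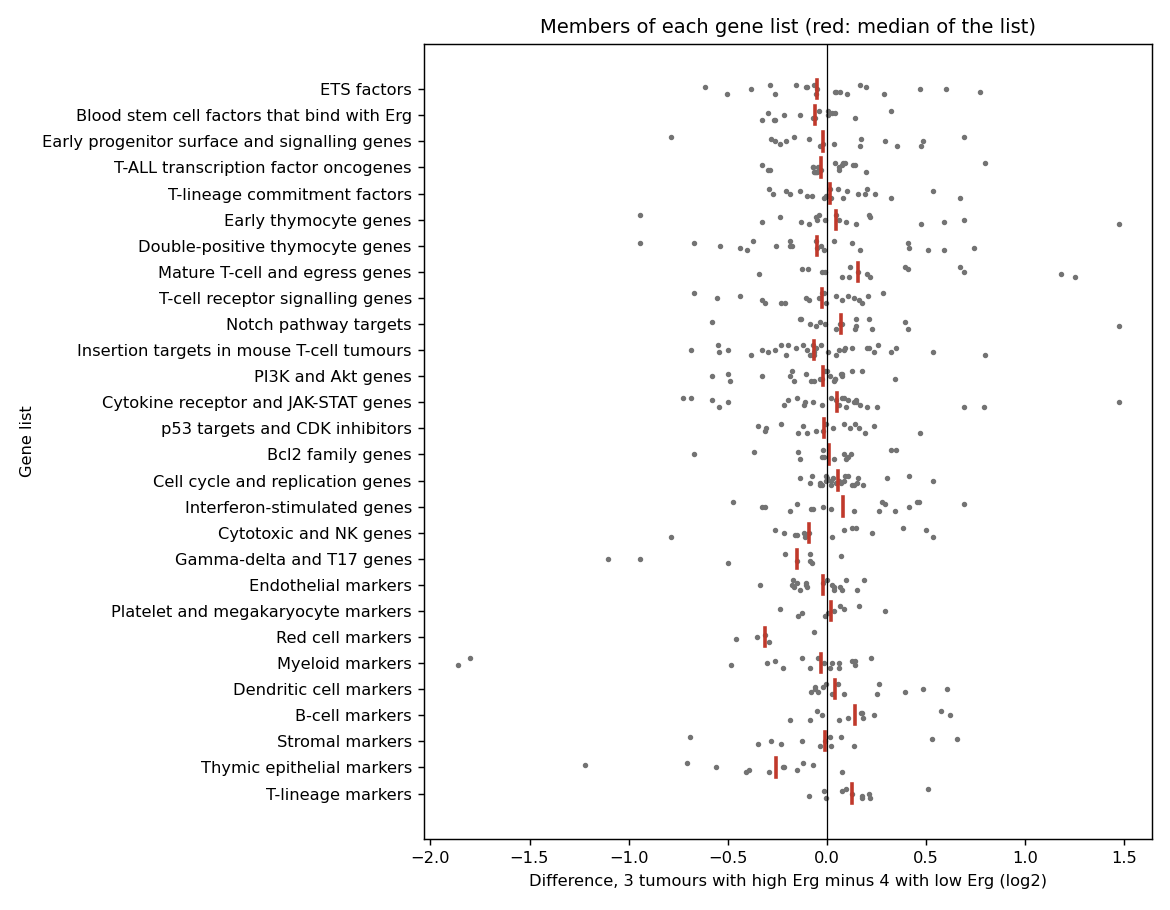
Difference (log2) between the tumours with high and low Erg for each measured member of 28 gene lists, as grey points, with the median of each list in red; the Y-linked genes are not drawn. The medians drawn lie between -0.31 and 0.16, around the 0.01 of all genes.

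The defining markers of the T lineage were strong in all tumours. The mean level of 11 T-lineage markers was between 10.84 and 11.03 with high and between 10.66 and 10.91 with low Erg. Cd3e, a chain of the T-cell receptor complex, was at 11.91, 11.79 and 11.66 against 11.52 to 11.62. Erg is also a factor of vessel walls and platelet precursors, whose markers did not separate. The mean level of 19 endothelial markers was between 6.70 and 6.95 with high and between 6.75 and 7.29 with low Erg, and Cdh5, the cadherin of endothelium, was at 7.64, 7.76 and 7.18 against 7.12 to 8.21. Over 10 platelet and megakaryocyte markers it was between 6.66 and 6.96 and between 6.56 and 6.94.

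Of 18 myeloid markers 0 passed, and the neutrophil genes S100a8 and S100a9 had the lowest unadjusted p, 0.0485 and 0.0145 in limma. S100a9 was at 6.93, 8.82 and 6.67 with high and at 10.42, 8.62, 8.73 and 9.57 with low Erg, so replicate 6 lay with the low tumours. Of 12 B-cell markers Ighm, the immunoglobulin mu chain that thymocytes can also transcribe, did not overlap, at 9.99, 10.23 and 10.14 against 9.54, 9.31, 9.61 and 9.54 (difference 0.62, 95% interval 0.35 to 0.89). In the higher direction 2.02% of all genes did not overlap, and the adjusted limma p of Ighm was 0.919. Of 14 dendritic cell and 13 stromal markers 0 passed. Of 12 thymic epithelial markers 0 passed either, but 1 was higher and the others lower with high Erg, with a median difference of -0.26. Epcam, an epithelial adhesion molecule, was at 8.09, 6.08 and 8.29 with high and at 8.69, 9.22, 9.38 and 7.55 with low Erg, and Krt14, a keratin, differed by -0.71. The mean level of the 12 was between 6.62 and 7.54 with high and between 7.12 and 7.71 with low Erg. It was lowest in replicate 6. The part of this level in the values of the junction gene Jup was not tested. The marker covariate was the mean over all 103 markers of other cells. All 5 red cell markers measured, of 10 listed, were lower with high Erg, with a median difference of -0.31, and 0 passed. Their mean level was 7.77 in replicate 3 and 6.71 to 6.97 in the other tumours with low Erg. With high Erg it was between 6.57 and 7.03, so replicate 3 alone stood above. The mean level of 103 markers of other cells was highest in replicate 3, at 7.76, and between 7.16 and 7.41 in the other 6. The part of this level in the differences was not tested beyond the fit with it as a covariate, in which 0 genes passed.

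RNA of Y-linked genes was not even between the tumours. The Y-linked genes Kdm5d and Eif2s3y were at 8.62 to 8.87 and 9.95 to 10.11 in replicates 4, 5 and 6, and at 4.97 to 5.23 and 3.99 to 4.22 in replicates 1, 2, 3 and 7. Of the 3 tumours with high Erg 2 thus had Y-linked RNA, and of the 4 with low Erg 1 had it. With the Y-linked level as a covariate 0 genes passed in limma, and the smallest adjusted p was 0.609.

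The tumours differed in the level of the genes of chromosome 15, which carries Myc, and this difference ran across the division by Erg. For genes with a mean level above 8, the deviation from the mean of the 7 was taken in each tumour. Each tumour's own median over all these genes was subtracted, and the median per chromosome is given. On chromosome 15, with 200 genes, it was 0.21 in replicate 3 and 0.11 in replicate 1, both with low Erg, but -0.09 and -0.04 in replicates 2 and 5, also with low Erg. The tumours with high Erg were at -0.10, -0.00 and -0.09 (replicates 4, 6 and 7). On the other 19 chromosomes the medians stayed between -0.08 and 0.05. Myc itself was lowest in replicate 3.

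**Figure D4:**
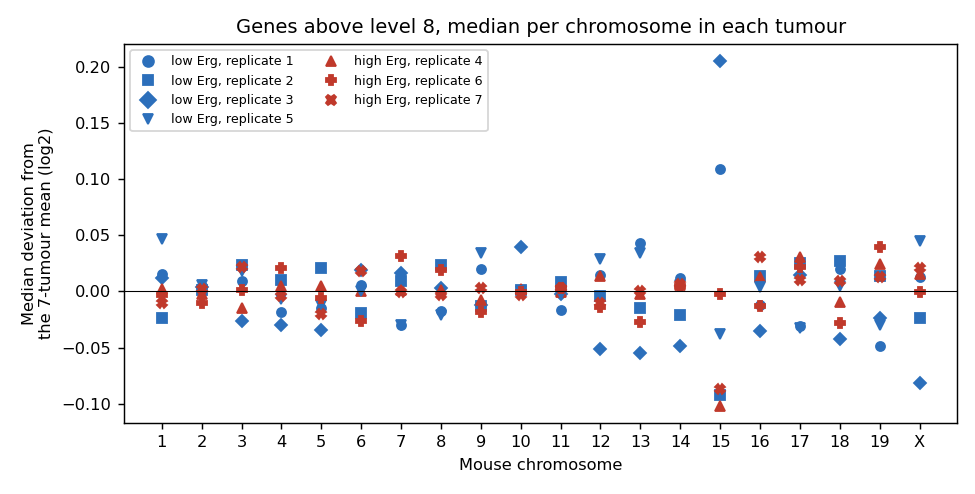
Median deviation (log2) of the genes above level 8 from their mean over the 7 Vav-SB tumours, per chromosome and tumour. Each tumour's own median over all these genes was subtracted. Red marks high and blue low Erg. Chromosome 15 spreads from -0.10 to 0.21, with replicates 3 and 1 on top, and the other chromosomes stay within -0.08 and 0.05.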

How the data were processed

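RNA of snap-frozen thymic lymphomas was amplified from a small input and hybridised to mouse exon arrays, per the labels' protocols. The authors deposited 1 value per probe set and tumour, taken here as log2 from their range of 2.07 to 13.94. Per the submitters' processing notes, the tools were RMA and Partek, and no version is named. RMA in general includes a background step and a log2 step, and the settings used are not stated in those notes. Column medians were 7.46 to 7.49, so a change in total RNA cannot be seen. Amplification can treat parts of a transcript unequally.

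Of 194293 probe sets, 179496 had 1 gene symbol, 1328 several and 13469 none, and only the first named genes. Symbols were updated through RefSeq of GRCm38.p6, where 13727 were current, 2017 matched by synonym, 32 were ambiguous, 22 were kept and 5 were unmatched. Probe sets were averaged per gene, for 15803 genes of which the median one had 9. Genes other than Erg were tested with limma 3.58.1 in R 4.3.3, with Benjamini-Hochberg adjustment at 0.05, on the difference of high minus low Erg, and the procedure was tested on simulated data. Intervals are at the 95% level. The number of arrays limits the precision. Alternatives were another summary over probe sets, bright probe sets, quantile normalization, a filter on dim genes, other variance priors, array weights, all 14 tumours, Erg as a slope, markers or Y-linked genes as a covariate and leaving out each tumour.

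The members and gene lists were chosen with earlier results of these data known. Named genes are the 12 with the largest difference in each direction at an unadjusted p under 0.01 with the higher mean above the median gene, since 0 passed the adjusted threshold. They also include the 6 most correlated with Erg among genes with a range of at least 2. Insertion-list genes with 1 tumour apart, genes of prior interest and members of the lists were named too. Of the 26 genes of prior interest, Erg among them, 25 were measured.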

Additional observations from a re-analysis of the deposited data

Results flagged for a closer look

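Of 106 sets of values, each a named gene in the tumours compared, 6 had 1 tumour far from the others. Chance alone flags about 1 in 20 such sets. Stat5b and Zmiz1 were named through this same rule, so the count cannot be set against chance. Replicate 3, with low Erg, was the tumour apart in 4 of the 6, and it also stood apart over all genes. Stat5b, a transcription factor of cytokine signalling, was at 10.66 there against 8.77 to 9.51 in the other 6. Hhex, a homeobox gene of early progenitors, was at 7.27 against 5.75 to 6.28, and Cd34 at 7.75 against 6.70 to 7.00. Adamts20 was at 5.74 in replicate 3 against 6.31 to 6.38 in the other 3 tumours with low Erg. The remaining 2 were tumours with high Erg. Kit was at 8.14 in replicate 7 against 6.34 to 6.84, and Zmiz1 was at 9.46 in replicate 6 against 8.69 to 8.97.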

How the results depend on the processing

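In each of the 18 alternatives 0 genes passed in limma, and the smallest adjusted p ranged from 0.05002, with all 14 tumours sharing 1 spread, to 0.781, without replicate 1. The 27 genes named for their size or their likeness to Erg kept their direction in each alternative that held them. They were chosen by size or likeness in these same tumours, so a kept direction was largely fixed in advance and supports nothing. The filter on dim genes held 18 of the 27, and the bright probe sets held 26, without Zfp946. Bright probe sets moved Laptm4b to 2.66, P3h4 to -2.23, Adamts20 to 0.68 and Gjb2 to 0.72. Without replicate 4 Acvr2a was at 0.88, and without replicate 6 Gjb2 was at 0.75. Of all 53 named genes 42 kept their sign and 11 did not, and the cause was not tested. With the median over probe sets Tal1 was at 0.0135, Lyl1 at -0.0223, Hhex at 0.13 and Cd34 at 0.041, and with bright probe sets Tal1 was at 0.006. With array weights Hhex was at 0.17, Meis1 at 0.0015 and Bcl11b at 0.0026. With Erg as a slope Hhex was at 0.0716, Ptcra at 0.0842 and Bcl11b at 0.0177. With the marker covariate Hhex was at 0.13 and Ptcra at 0.0133, and with the Y-linked covariate Hhex was at 0.0682, Meis1 at 0.04, Notch1 at -0.16 and Bcl11b at 0.0187. Leaving out 1 tumour each moved Tal1 from -0.14 to 0.0133, Lyl1 from -0.0712 to 0.22, Hhex from -0.21 to 0.30, Kit from -0.0554 to 0.85, Cd34 from -0.26 to 0.0608, Notch1 from -0.11 to 0.27, Ikzf1 from -0.35 to 0.0204, Ptcra from -0.25 to 0.19, Rag1 from -0.34 to 0.22 and Bcl11b from -0.0619 to 0.0708. Without a change of sign, but by over 1.5 times, leaving out 1 tumour also moved Lmo2 from -0.51 to -0.0644, Meis1 from -0.47 to -0.0253, Gata2 from -0.29 to -0.0566, Runx1 from 0.19 to 0.46, Fli1 from -0.37 to -0.15, Ets1 from -0.46 to -0.23, Myb from -0.42 to -0.20, Myc from 0.0875 to 0.31, Cdkn2a from 0.15 to 0.39, Dntt from 0.30 to 0.78, Il7r from 0.23 to 1.33, Il2ra from 0.47 to 2.31, Cd4 from -0.72 to -0.0226, Cd8a from -0.88 to -0.20, Stat5b from -0.87 to -0.35 and Zmiz1 from 0.0777 to 0.38. No paired analysis was possible because the replicate numbers only follow the accession order.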

Other observations

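Among the genes with an unadjusted p under 0.01, 4 pairs lay next to each other in the gene order of GRCm38.p6. Gm5111 and Repin1, a zinc finger gene, are neighbours on chromosome 6 and differed by 3.04 and 0.83. The near genes Rarres2, AI854703, Lrrc61, Zfp775 and Atp6v0e2 differed by 0.77, 0.51, 0.18, 0.16 and -0.03. Jup and P3h4 on chromosome 11 differed by -1.34 and -1.25. Rgs2 and Rgs13, both regulators of G-protein signalling, are neighbours on chromosome 1 and differed by -0.95 and -0.89. On chromosome 17, 2410137M14Rik and Zfp57, a zinc finger gene of imprinting, differed by 0.96 and 0.66. On chromosome 10 the near neighbours Lama4, Fam229b and Tube1 differed by 1.62, -0.43 and -1.05, so that Lama4 and Tube1 lay in opposite directions. These are values from the same comparison, in which limma called 0 genes, with 537 at an unadjusted p under 0.05.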
